A study of Mus musculus with 6 samples.

Results

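The genes described here encode the proteins of the cytosolic ribosome. They were taken as the protein-coding rows whose symbol begins with Rpl or Rps and a digit, or with Rplp, or is Rpsa, with the S6 kinases, Rps19bp and pseudogenes left out. This gave 84 of the 37309 genes in the table, 51 of the large subunit and 33 of the small subunit. The RNA came from cultured aortic smooth muscle cells (descending aorta, Immorto mouse). Immorto mice carry a conditional large T antigen, so their cells keep dividing in culture. The 3 DAPT samples had been kept for 3 days in 50 uM DAPT, an inhibitor of gamma-secretase, the enzyme complex that cuts Notch receptors and many other membrane proteins inside the membrane. The 3 vehicle samples had been kept for the same time in DMSO alone. All 6 samples share the strain, the tissue and the cell name ImSMC, and nothing in the labels says that the replicates came from separate cultures or animals, so p-values measure only the spread between these samples, which may be technical.

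Each ribosome holds a single copy of most of its proteins, which are built together with ribosomal RNA in the nucleolus and joined into a small subunit, which reads the mRNA, and a large subunit, which forms the peptide bond. The proteins are needed in nearly equal amounts in every cell type, and their mRNAs are among the most abundant in growing cells. Their mRNAs typically begin with a run of pyrimidines, the terminal oligopyrimidine or TOP motif, through which mTOR signalling and the RNA-binding protein LARP1 control how well they are translated. Myc proteins are known activators of these genes and of ribosome assembly.

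The start sites of 5 members that fell under DAPT and 5 that did not pass the test are shown as examples of a pyrimidine run near an annotated start site. Each line gives 20 bases before and 20 bases from the annotated start in RefSeq, build GRCm38.p6, read on the strand of the gene. Capitals mark the longest unbroken run of C and T. For a member with several annotated starts, the one with the longest run within 30 bases is shown. The run of Rpl4 ends before the start, and that of Rpl11 begins 13 bases after it and continues past the printed bases. Whether a marked run is a TOP motif was not tested. The lines for Rps9 at chr7:3704021-3704060 (plus strand), Rpl12 at chr2:32961692-32961731 (plus), Rpl28 at chr7:4792945-4792984 (plus), Rps21 at chr2:180257359-180257398 (plus) and Rps26 at chr10:128626487-128626526 (minus) belong to members that fell. Those for Rpl4 at chr9:64173367-64173406 (plus), Rpl15 at chr14:18270967-18271006 (minus), Rpl11 at chr4:136053374-136053413 (minus), Rps6 at chr4:86857348-86857387 (minus) and Rps27 at chr3:90213629-90213668 (minus) belong to members that did not pass the test. These 10 were chosen after their values were seen and because each holds a run of at least 7, so the runs seen in both sets follow from the choice.
Rps9: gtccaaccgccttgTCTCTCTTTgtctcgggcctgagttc
Rpl12: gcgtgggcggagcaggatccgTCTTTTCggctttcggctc
Rpl28: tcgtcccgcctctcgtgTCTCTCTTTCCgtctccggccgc
Rps21: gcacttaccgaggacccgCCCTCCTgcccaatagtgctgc
Rps26: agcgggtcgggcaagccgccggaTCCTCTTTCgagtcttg
Rpl4: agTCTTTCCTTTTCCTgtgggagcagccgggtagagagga
Rpl15: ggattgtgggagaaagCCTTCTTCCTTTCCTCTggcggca
Rpl11: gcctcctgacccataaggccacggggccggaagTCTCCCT
Rps6: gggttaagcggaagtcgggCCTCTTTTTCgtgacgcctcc
Rps27: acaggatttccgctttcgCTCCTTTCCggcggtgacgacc
Other members have only short runs in the same window of 40 bases: the longest is 5 bases in Rpl27, Rpl36a and Rps16, which fell, and 5 bases in Rpl22 and 4 bases in Rpl9 and Rps4x, which did not pass the test.

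Most ribosomal protein mRNAs had slightly lower values in DAPT-treated cells, and a minority passed the test, all of them lower. Of the 80 members with enough reads to test, 19 fell, 0 rose and 61 did not pass the test (limma on log2-transformed normalised counts, Benjamini-Hochberg adjusted p below 0.05 over 14906 genes). The members that fell were 23.8% of those tested, against 8.91% of all genes tested, and 9.22% of all genes rose. The median log2 change of the 80 members, DAPT minus vehicle, was -0.07, beside a median of 0.0009 over all genes tested. A negative change, called or not, was seen in 67 of the 80 members (83.8%), against 49.7% of all genes tested. The most negative change was -0.45, for Rps4y2. In bulk RNA, fewer cells of a type and less RNA per cell cannot be told apart, and the values are relative to all other mRNAs in a library.

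**Figure D1:**
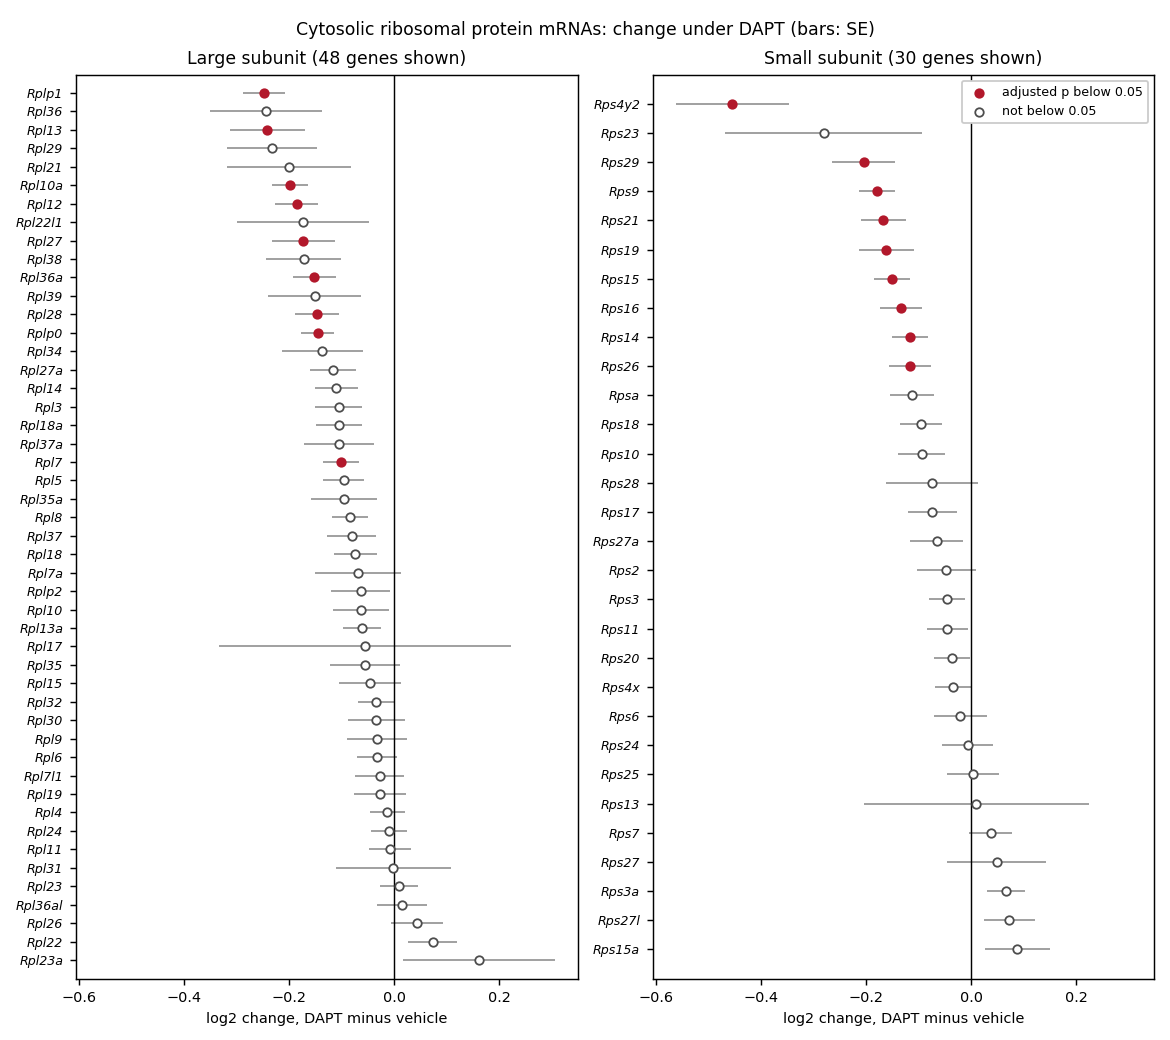
Log2 change, DAPT minus vehicle, of 48 large-subunit (left) and 30 small-subunit members tested (right), with bars of 1 SE and filled points for an adjusted p below 0.05. Of the 78 points shown, 66 lie left of 0, and all 18 filled points are among them.

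The count of members that fell depended on single libraries, while the direction did not. Leaving out DAPT replicate 3 gave 11, leaving out DAPT replicate 1 gave 12, and leaving out vehicle replicate 2 gave 10. With any of the other 3 libraries left out it was 15 to 20. The median change of the members stayed negative in each of these fits, between -0.10 and -0.05. In the deposited p-values, which come from the authors' deposited table, 7 members passed an adjusted p of 0.05, all lower in DAPT and 0 higher, against 4.74% lower and 4.78% higher among all genes tested. On the reads recovered from 5 libraries, edgeR called 11 members lower and 0 higher, against 6.63% and 6.42% of all genes tested. DESeq2 on the same reads called 5 members lower and 0 higher, against 4.08% and 3.38% of the genes it tested. These 7 were Rps9, Rplp1, Rpl10a, Rpl12, Rps4y2, Rps15 and Rplp0, and all of them also fell in the limma fit. They are also the 7 called members that passed without any 1 library.

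The groups did not overlap for 29 of the 80 members. All 3 DAPT values lay below all 3 vehicle values for 27 members (33.8%), against 16.4% of all genes tested. All 3 DAPT values lay above all 3 vehicle values for 2 members (2.50%), against 16.8% of all genes tested, and neither passed the test. Among the 19 members that fell, the groups overlapped for Rps29 and Rpl27.

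**Figure D2:**
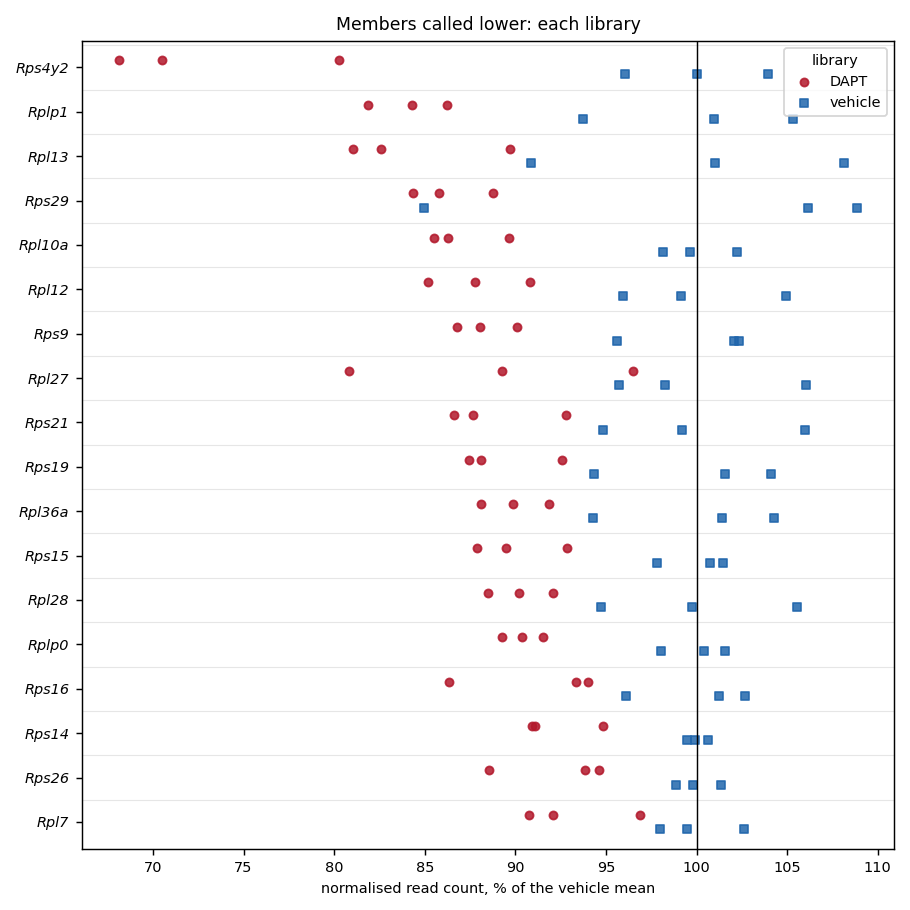
Normalised read count in each library, as a percentage of the vehicle mean, for 18 of the 19 members that fell, with 3 DAPT samples (circles) above 3 vehicle samples (squares) for each gene. The DAPT points lie left of the vehicle points for every gene shown except Rps29 and Rpl27.

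The ribosomal stalk, the flexible arm of the large subunit that recruits elongation factors, included some of the clearest changes. Rplp1, an acidic stalk protein, had 2652, 2519 and 2594 normalised counts in DAPT samples, against 2884, 3106 and 3240 in vehicle samples. Rplp0, which anchors the acidic proteins to the ribosome, had 8327, 8123 and 8220 normalised counts in DAPT samples, against 9239, 8920 and 9135 in vehicle samples. For both genes every DAPT sample lay below every vehicle sample. Rplp1 fell by 0.25 ± 0.04 on the log2 scale (SE, n = 3 each, limma adjusted p = 6.3e-05) and Rplp0 fell by 0.15 ± 0.03 (limma adjusted p = 0.00157). Rplp2, the other acidic stalk protein, had 755, 726 and 688 normalised counts in DAPT samples and 708, 729 and 835 in vehicle samples, which overlap, and did not pass the test (log2 change -0.06 ± 0.06, limma adjusted p = 0.50). Rplp0 and Rplp1 stayed below the threshold in all 17 alternative fits. Whether Rplp2 differed from its partners in response was not tested.

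Rpl12 sits at the base of the stalk and Rpl10a forms the second arm of the large subunit, the L1 stalk, where spent transfer RNA leaves. Rpl10a had 3126, 3154 and 3279 normalised counts in DAPT samples, against 3588, 3738 and 3643 in vehicle samples. Rpl12 had 1556, 1658 and 1604 normalised counts in DAPT samples, against 1752, 1811 and 1916 in vehicle samples. The groups were apart for both genes. Rpl10a fell by 0.20 ± 0.03 on the log2 scale (SE, n = 3 each, limma adjusted p = 0.000152) and Rpl12 fell by 0.19 ± 0.04 (limma adjusted p = 0.002). In DESeq2 on the 5 libraries with recovered reads, Rpl12 missed the threshold at an adjusted p of 0.0519.

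Of the 48 large-subunit members tested, 9 fell (18.8%) and 0 rose, 43 had a negative change, and the median log2 change was -0.08. Besides the stalk proteins these were Rpl13, Rpl27, Rpl36a, Rpl28 and Rpl7, all structural proteins of the large subunit. Rpl13 had 313, 340 and 307 normalised counts in DAPT samples and 344, 410 and 383 in vehicle samples, and its groups met closely but did not overlap (log2 change -0.24 ± 0.07, SE, n = 3 each, limma adjusted p = 0.0187). Rpl27 had 654, 605 and 548 normalised counts in DAPT samples and 719, 649 and 666 in vehicle samples, where DAPT replicate 1 exceeded vehicle replicate 2 (log2 change -0.17 ± 0.06, limma adjusted p = 0.0459). Rpl36a, encoded on the X chromosome, had 1509, 1539 and 1573 normalised counts in DAPT samples and 1615, 1786 and 1736 in vehicle samples, with no overlap (log2 change -0.15 ± 0.04, limma adjusted p = 0.0111). Rpl28 and Rpl7 fell by 0.15 and 0.10 on the log2 scale. The call of Rpl13 was lost without DAPT replicate 1, DAPT replicate 3 or vehicle replicate 2 (adjusted p up to 0.127), and that of Rpl27 without DAPT replicate 2, DAPT replicate 3 or vehicle replicate 1 (up to 0.298). Those of Rpl36a and Rpl28 were lost without DAPT replicate 1 or vehicle replicate 2 (up to 0.0857 and 0.125), that of Rpl28 also without DAPT replicate 3. Rpl7 lost its call without DAPT replicate 1 or 3 or vehicle replicate 2 or 3 (up to 0.181).

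Rpl5, Rpl11, Rpl3 and Rpl38 did not pass the test. Rpl5 and Rpl11 bind 5S ribosomal RNA and can hold back the p53 regulator Mdm2. Rpl5 had 1703, 1753 and 1807 normalised counts in DAPT samples and 1805, 1918 and 1902 in vehicle samples (log2 change -0.10 ± 0.04, SE, n = 3 each, limma adjusted p = 0.0921), and without vehicle replicate 1 its adjusted p was 0.037. Rpl11 had 1316, 1356 and 1310 normalised counts in DAPT samples and 1323, 1300 and 1381 in vehicle samples, which overlap (log2 change -0.01 ± 0.04). Rpl3, which lies close to the peptidyl transferase centre, had 1297, 1312 and 1324 in DAPT samples, all below the 1377, 1343 and 1519 in vehicle samples, but missed the threshold (log2 change -0.11 ± 0.04, limma adjusted p = 0.105). Rpl38, known in the mouse for its part in translating Hox mRNAs, had a log2 change of -0.17 ± 0.07 and an adjusted p of 0.103, and 0.0447 without vehicle replicate 1. The members with positive changes were led in the large subunit by Rpl23a (log2 change 0.16 ± 0.14) and Rpl22 (0.07 ± 0.05), neither of which passed. Without vehicle replicate 3, Rpl22 was called higher, with an adjusted p of 0.0394.

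In the small subunit, 10 of 32 members tested fell (31.2%) and 0 rose, 24 had a negative change, and the median log2 change was -0.07. Rps9, which lines the channel through which mRNA enters, had 4154, 4250 and 4095 normalised counts in DAPT samples, against 4510, 4815 and 4829 in vehicle samples. Rps15, in the head of the subunit, had 3515, 3713 and 3579 normalised counts in DAPT samples, against 3911, 4057 and 4028 in vehicle samples. All DAPT values lay below all vehicle values for both genes. Rps9 fell by 0.18 ± 0.03 on the log2 scale (SE, n = 3 each, limma adjusted p = 0.000591) and Rps15 fell by 0.15 ± 0.03 (limma adjusted p = 0.00246). Rps9 stayed below the threshold in all 17 alternative fits, whereas Rps15 missed it with DESeq2 on 5 libraries, at 0.0519. Rps14 and Rps26, near the channel where mRNA leaves, and Rps16, which touches the transfer RNA in the peptidyl site, fell by 0.12, 0.12 and 0.13 on the log2 scale.

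Among the small-subunit members that fell, Rps19, Rps26 and Rps29 are mouse counterparts of genes mutated in human Diamond-Blackfan anaemia. Rps19, the gene most often affected in that disease, had 617, 648 and 612 normalised counts in DAPT samples and 660, 711 and 729 in vehicle samples, with no overlap (log2 change -0.16 ± 0.05, SE, n = 3 each, limma adjusted p = 0.0311). Rps29 had 1529, 1452 and 1477 normalised counts in DAPT samples and 1463, 1828 and 1875 in vehicle samples, so that vehicle replicate 1 lay among the DAPT values (log2 change -0.20 ± 0.06, limma adjusted p = 0.0191). Rps21, another structural protein of the small subunit, had 1640, 1660 and 1757 normalised counts in DAPT samples and 1796, 1878 and 2007 in vehicle samples, and the groups did not overlap (log2 change -0.17 ± 0.04, limma adjusted p = 0.00698). The calls of Rps19 and Rps29 were each lost in 4 of the 6 fits that left out a library (adjusted p up to 0.118 and 0.123). Both lost it without DAPT replicate 3, vehicle replicate 2 or vehicle replicate 3, Rps19 also without DAPT replicate 1, and Rps29 also without DAPT replicate 2. Rps21 lost it without DAPT replicate 1, at 0.0505. Of the others, Rps14 and Rps16 lost theirs without DAPT replicate 1 or vehicle replicate 2 (up to 0.0888 and 0.149), Rps14 also without DAPT replicate 3, and Rps26 in 5 of the 6 fits (up to 0.238), all but the one without vehicle replicate 3.

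The member with the largest change was Rps4y2, a second gene for the small-subunit protein S4, on chromosome 6, whose gene ID carries the symbol Rps4l in a later annotation. It had 92.9, 109 and 96.1 normalised counts in DAPT samples, against 136, 131 and 142 in vehicle samples. The groups did not overlap, and its level was the lowest of the 19 members that fell. No protein-coding transcript was found for Rps4y2 in the GENCODE M21 annotation, so its shared stretches were not counted. Whether its counts include reads of Rps4x was not tested. The log2 change was -0.45 ± 0.11 (SE, n = 3 each, limma adjusted p = 0.00386), and in DESeq2 on 5 libraries the adjusted p was 0.155. Its main copy on the X chromosome, Rps4x, had 4604, 4481 and 4290 normalised counts in DAPT samples and 4590, 4548 and 4556 in vehicle samples (log2 change -0.03 ± 0.03), and did not pass.

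Rps6, Rpsa and Rps27a did not pass the test. Rps6, the substrate of the S6 kinases, had 1051, 961 and 918 normalised counts in DAPT samples and 936, 1022 and 1010 in vehicle samples, which overlap (log2 change -0.02 ± 0.05, SE, n = 3 each). Rpsa, also known as a laminin receptor, had 967, 969 and 931 normalised counts in DAPT samples, below the 1035, 1034 and 1029 in vehicle samples, but missed the threshold (log2 change -0.11 ± 0.04, limma adjusted p = 0.0683). Rps27a, made as a fusion with ubiquitin, had a log2 change of -0.07 ± 0.05. Among positive changes, Rps15a had a log2 change of 0.09 ± 0.06 and Rps27 one of 0.05 ± 0.09, and neither passed.

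Of the paralogs of standard ribosomal proteins, Rps4y2, described with Rps4x, fell, and the others listed either had no reads or did not pass the test. Rpl3l, made in striated muscle, and Rpl10l and Rpl39l, made in testis, had 0 reads in all 6 libraries. Of the other 4 paralogs tested, 0 rose and 0 fell. Rpl22l1 had 80.5, 101 and 116 normalised counts in DAPT samples and 111, 107 and 114 in vehicle samples (log2 change -0.17 ± 0.13, SE, n = 3 each). Rpl36al had a log2 change of 0.02 ± 0.05, Rps27l one of 0.07 ± 0.05 and Rpl7l1 one of -0.03 ± 0.05. The partner genes Rpl36a and Rpl36al gave values of -0.15 and 0.02, a difference that was not tested. The remaining untested member, Rps12, had 6.63, 9.47 and 5.94 normalised counts in DAPT samples and 5.64, 7.21 and 7.97 in vehicle samples, too few for the filter of 10 in at least 3 libraries.

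The members that fell were mostly those with many reads. Among the 44 members with a mean of at least 1000 normalised counts, 15 fell (34.1%) and 39 had a negative change, whereas of the 3462 genes at that level 15.1% fell, 19.1% rose and 45.7% had a negative change. Among the 36 tested members below that level, 4 fell (11.1%) and 28 had a negative change. Of all genes tested, at any level, 8.91% fell and 49.7% had a negative change. Over all genes, too, a fall was therefore called more often at the higher level. The share over all genes below that level was not computed. The median log2 changes of the members were -0.09 above the level and -0.07 below it, and a lower count gives a wider error. Across 78 members, level and log2 change had a Spearman correlation of -0.0477, given as a description over genes that share the same 6 libraries.

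**Figure D3:**
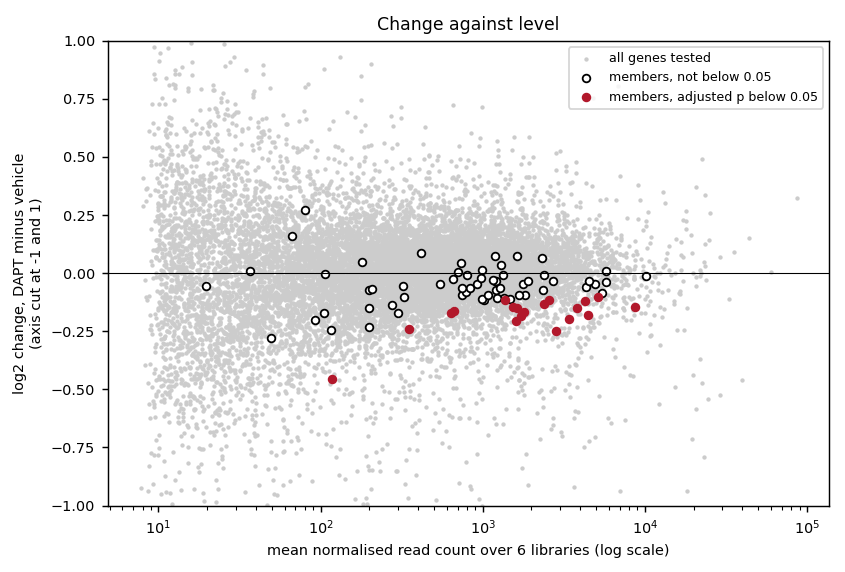
Log2 change, DAPT minus vehicle, against the mean normalised read count over 6 libraries (log scale) for all genes tested (grey) and the 80 members (open and filled points). The filled points, the 19 members that fell, lie mostly right of 1000 normalised counts, and the spread of the open points widens to the left.

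Per kilobase of the deposited gene length, the highest members were Rpl4 with 7140 normalised counts per kilobase, Rpl8 with 6340, Rplp1 with 5722 and Rpl32 with 5249. The lowest tested were Rpl21 with 21.5, Rps13 with 23.8 and Rpl17 with 25.2. For some members the deposited length exceeds that of a GENCODE M21 transcript, which lowers the value per kilobase. It is 1550 against 589 bases for Rps13 and 4319 against 1856 for Rpl21, but 775 by both for Rpl17. With that limit, the mRNA values of proteins that the ribosome holds in nearly equal amounts spread widely in this table. Near-identical copies are common for these genes: of 82 members with a transcript in the GENCODE M21 annotation, 79 shared at least 1 stretch of 50 bases with a pseudogene, and the median member shared 56.0% of its 50-base stretches with another gene. For 75 mitochondrial ribosomal proteins that median was 2.45%. How reads that match several places were counted is not given in the sources used here, so the counts of members with many shared stretches are uncertain. Among these are Rpl36a (85.5% shared), Rpl13 (80.3%), Rpl10a (77.7%), Rpl27 (64.1%) and Rplp1 (60.0%). The same holds for Rps12 (85.7%), Rps13 (83.0%) and Rpl17 (78.7%), whose few reads need not mean little mRNA.

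Most members had a negative change whether they shared few stretches or many. Of the 33 tested with at most 50% shared, 12 fell (36.4%), 0 rose, 29 had a negative change and the median log2 change was -0.11. Of the 45 with more, 6 fell (13.3%), 0 rose, 36 had a negative change and the median was -0.06. Of all genes tested, 8.91% fell. The members that fell with at most 50% shared include Rps19 (25.3% shared), Rps21 (26.4%), Rps15 (31.5%), Rps9 (33.0%), Rplp0 (41.8%) and Rpl12 (49.4%). Over the 78 members with a value, the share had a Spearman correlation of -0.342 with level and of 0.17 with log2 change, as descriptions. The row named Rpl24 carries a gene ID that belongs to Zbtb11 in the M21 annotation. Its values (log2 change -0.01 ± 0.03, SE, n = 3 each) are therefore uncertain as those of Rpl24, and without it 19 of 79 members fell.

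All members together took a slightly smaller share of each DAPT library. They held 1.04%, 1.06% and 1.04% of the normalised counts in DAPT samples (1.05% ± 0.0081, SD, n = 3) and 1.08%, 1.10% and 1.13% in vehicle samples (1.10% ± 0.029). The groups did not overlap, and the difference was -0.053 percentage points, a relative change of -4.81%. Vehicle replicate 3 stood highest, and without it the difference came to its smallest size, -0.0371 points. The median of the 80 tested members, relative to the vehicle mean, was -0.09, -0.06 and -0.09 on the log2 scale in DAPT samples and -0.02, -0.02 and 0.04 in vehicle samples. Mitochondrial ribosomal proteins held 0.215% ± 0.00088 of counts in DAPT samples and 0.217% ± 0.0033 in vehicle samples.

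**Figure D4:**
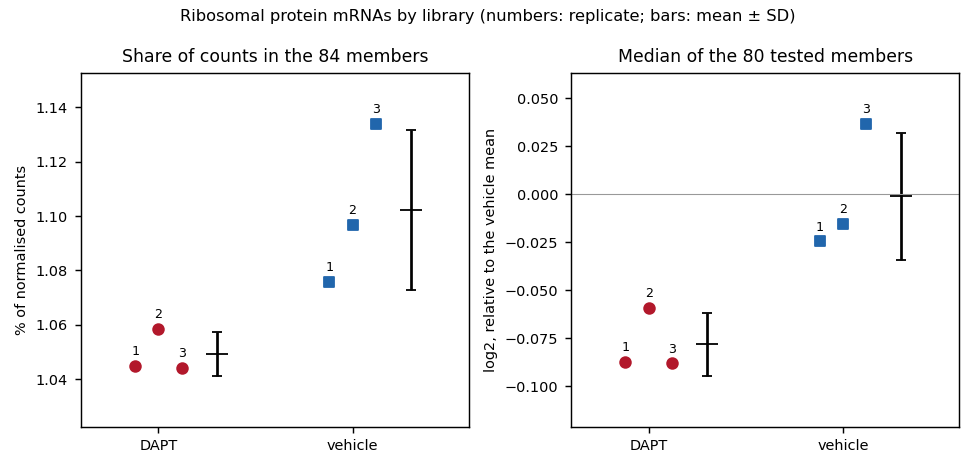
Left, percentage of all normalised counts in the 84 members for each library; right, median log2 value of the 80 tested members relative to the vehicle mean; bars give mean ± SD of 3 samples. In both panels the 3 DAPT samples lie below all vehicle samples, and vehicle replicate 3 is the highest. The left axis does not start at 0.

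Runs of pyrimidines near the start, the letters printed above in capitals, were common among the members. RefSeq promoters (300 bases, 250 before and 50 from the start, GRCm38.p6) were matched for 62 members by symbol. A run of at least 7 C or T within 30 bases on either side of the start was found in 42 of the 62 (67.7%), against 37.4% of 27025 genes with a promoter. The letters CCGGAA, the core bound by ETS factors such as GABP, stood on either strand in 34 (54.8%), against 16.7% of genes. The letters AAGATGGCG, bound by YY1, were found on either strand in 4 (6.45%), against 1.64%, and TATAAA in 7 (11.3%), against 15.7%. Where motifs overlapped each was counted. Of the 40 tested members with a pyrimidine run, 10 fell (25%) and the median log2 change was -0.09. Of the 18 without, 3 fell (16.7%) and the median was -0.04. Beside them, 23.8% of all members tested and 8.91% of all genes tested fell. Members without a matched promoter, among them Rplp1, Rps4y2, Rps29 and Rpl7, which fell, were left out of these splits. The count of 34 takes any promoter of a gene, whereas the split by CCGGAA uses only the promoter with the longest run. With CCGGAA there, 5 of 32 tested members fell (15.6%), and without it 8 of 26 (30.8%). A match of letters is a description of the window and no measure of binding.

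Of 3 cytosolic ribosomal proteins whose symbols lie outside the rule, all had a negative change and 1 fell. Gnb2l1, the scaffold RACK1 on the small subunit, had 10565, 10262 and 10238 normalised counts in DAPT samples, below the 11488, 10993 and 11237 in vehicle samples. It fell by 0.12 ± 0.03 on the log2 scale (SE, n = 3 each, limma adjusted p = 0.0103). Fau, a ubiquitin-like fusion that yields S30, had a log2 change of -0.04 ± 0.05 and did not pass. Ribosomal protein pseudogene rows, whose reads may come from the parent genes, numbered 156, of which 55 were tested, 0 rose and 8 fell, with a median log2 change of -0.10. The most abundant, Rpl10a-ps1, fell by 0.15 ± 0.04 on the log2 scale, as its parent Rpl10a fell by 0.20.

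Ribosomal proteins of mitochondria, which are built for a separate ribosome, had a median change closer to that of all genes. Of 77 tested, 1 rose (Mrps6) and 2 fell (Mrpl37 and Mrpl17), 47 had a negative change, and the median log2 change was -0.03. All 3 DAPT values lay below all 3 vehicle values for 14 (18.2%), against 16.4% of all genes tested. They lay above for 2 (2.6%), against 16.8% of all genes tested and 2.5% of the cytosolic members. Mrpl37 had 371, 383 and 398 normalised counts in DAPT samples, below the 425, 447 and 432 in vehicle samples (log2 change -0.18 ± 0.06, SE, n = 3 each, limma adjusted p = 0.0376). Most of these genes have fewer reads than the cytosolic members, with a median of 318 normalised counts, against 1196, so small changes are harder to call.

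**Figure D5:**
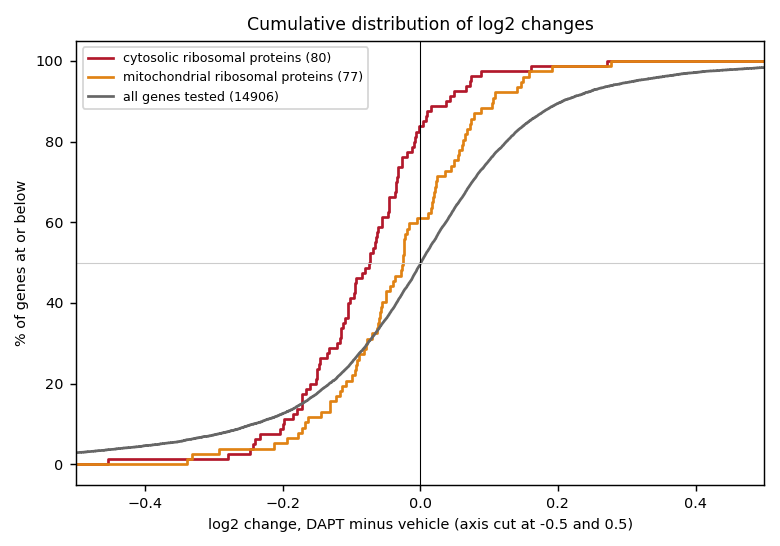
Percentage of genes at or below each log2 change, DAPT minus vehicle, for the 80 cytosolic ribosomal proteins, the 77 mitochondrial ones and all 14906 genes tested. The curve of the cytosolic members crosses 50% at -0.07, left of the mitochondrial curve at -0.03 and of all genes at about 0.

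Other genes of the translation machinery that passed the test did not share a single direction. Of 38 initiation factors, 3 rose (Eif3e, Eif2s2 and Eif5), 1 fell (Eif4h) and the median log2 change was -0.01. Eif3e, a subunit of the factor that loads the small subunit on mRNA, had 1627, 1645 and 1718 normalised counts in DAPT samples, above the 1470, 1411 and 1435 in vehicle samples (log2 change 0.21 ± 0.04, SE, n = 3 each, limma adjusted p = 0.000373). Of 11 elongation and termination factors, 1 rose and 1 fell. The one that rose was Eef2k, the kinase that inhibits elongation factor 2, with 351, 345 and 383 normalised counts in DAPT samples and 263, 293 and 289 in vehicle samples (log2 change 0.35 ± 0.07, limma adjusted p = 0.000711). The one that fell was its substrate Eef2 (log2 change -0.11 ± 0.03, limma adjusted p = 0.0136). Of 19 other genes known to have TOP mRNAs, 2 rose (Eif3e and Pabpc1), 2 fell (Eef2 and Gas5) and the median log2 change was 0.00. Eef1a1, the most abundant of these, had a log2 change of 0.00 ± 0.04.

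Few genes that assemble the ribosome or make its RNA passed the test. Of 59 tested, 2 rose (Utp15 and Utp20, parts of the complex that processes small-subunit RNA), 0 fell and the median log2 change was -0.01. Of 7 small nucleolar RNA host genes tested, whose introns carry guides for RNA modification, 0 rose and 2 fell (Gas5 and Snhg1, by 0.20 and 0.19 on the log2 scale), with a median of -0.15. Of 22 regulators of ribosomal protein synthesis, 4 rose and 3 fell. Mycn had the largest change among them, with 23.7, 25.3 and 20.8 normalised counts in DAPT samples, against 65.8, 76.9 and 54.9 in vehicle samples (log2 change -1.45 ± 0.18, SE, n = 3 each, limma adjusted p = 2.32e-06). Deptor, an inhibitor of mTOR, fell by 0.27 ± 0.07 on the log2 scale, and Myc, named after its value was seen, fell by 0.16 ± 0.05. Mxd1, which competes with Myc for its partner Max, had a log2 change of 0.25 ± 0.07 (limma adjusted p = 0.00847). Tsc1, a brake on mTOR, Mnt, another Max partner, and Eif4ebp1, a repressor of cap-dependent initiation, rose by 0.16, 0.14 and 0.13 on the log2 scale. Larp1, the most abundant regulator, had a log2 change of 0.01 ± 0.04. Of 9 S6 kinases tested, 1 rose (Rps6ka3) and 0 fell. The part of these regulators in the values of the ribosomal proteins was not tested.

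Library depth was similar in both groups, with 12159930 to 13488512 reads in genes in DAPT samples and 10702548 to 14503665 in vehicle samples. Hes1, a direct Notch target, had 211, 200 and 223 normalised counts in DAPT samples and 320, 331 and 327 in vehicle samples, as a check of the labels. Markers of smooth muscle summed to 1826 to 2021 normalised counts in DAPT samples and 2538 to 2733 in vehicle samples, with 2 of 7 tested lower. Of the mesothelial markers 6 of 7 tested were lower (sums of 1951 to 2094 in DAPT samples and 3524 to 3611 in vehicle samples), and of the adventitial fibroblast markers 1 of 9 was higher and 6 were lower (29984 to 31452 and 29951 to 32605). Of 4 endothelial markers tested none passed (609 to 631 in DAPT samples and 594 to 655 in vehicle samples), and of 3 macrophage and leukocyte markers 1 was higher (420 to 435 and 348 to 400), with Emr1 at 0 in every library. The part of any change in cell make-up in the values of the ribosomal proteins was not tested.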

How the data were processed

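Per the labels' protocols, libraries of 6 samples were made from 1 ug of total RNA with TruSeq reagents. The submitters' processing notes name DESeq 1.16.0, HTSeq 0.5.4p3, TopHat2 2.0.4 and build mm9 without saying what each did. Neither strand use nor the handling of reads with several matches is given in the sources used here. The columns marked C and I were read as vehicle (control) and DAPT (inhibitor). The authors deposited, per gene and library, a signal equal to the read count divided by 1 size factor, as the values show: multiplied by that factor, 100% came out whole to within 0.01 reads. The authors also deposited a log2 ratio, a p-value and an adjusted p-value per gene.

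Genes with at least 10 normalised counts in at least 3 libraries were tested with limma 3.58.1 (R 4.3.3) on log2(value + 1), DAPT minus vehicle, two-sided, with all 6 libraries, an intensity trend, no covariate and Benjamini-Hochberg adjustment over 14906 genes. Fold changes are on that scale, which understates those of low genes. Of 37309 rows, 14349 had no read. Alternatives were edgeR 4.0.16 and DESeq2 1.42.0 on the reads recovered from 5 libraries (the size factor of DAPT replicate 3, 1.01, is too near 1 to be accepted), other pseudocounts, filters and scalings, and leaving out each library. The script was tested on simulated counts, with 50 changes put in at each size. It recovered 12% of those of 1.1-fold, 78% of 1.25-fold, 92% of 1.5-fold and 100% of 2-fold. In the simulation 14707 of 14907 genes were unchanged, whereas 18.1% of genes tested passed in these data. The simulated spread between samples was a chosen setting, not estimated from these libraries, so the rates may differ for the fit reported. A member that did not pass the test may still have changed by a small amount.

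The members and lists were chosen with earlier results of these data known, so counts and medians over them are descriptions beside all genes tested. Members with values in the text are up to 8 per direction by size of change among those that passed, the largest 4 in a direction with fewer, a fixed list of proteins of known role, and the 4 highest and lowest by level per length; other members are named with their values seen. A few genes enter the fits and counts and are not reported here by name. Same-numbered samples did not deviate together (correlations of 0.0267, -0.0175 and 0.0099), so the replicate numbers were not taken as pairs. Shared stretches were counted in GENCODE M21 transcripts, which are not the authors' annotation.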

Additional observations from a re-analysis of the deposited data

How the results depend on the processing

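The median change of the members kept its sign in all alternatives, between -0.10 and -0.05 when 1 library was left out and between -0.08 and -0.06 otherwise. The number of members that fell, 19 in the fit reported, was 10 to 20 when 1 library was left out, 11 with edgeR on 5 libraries (6.63% of all genes tested fell) and 5 with DESeq2 on them (4.08%). It was 15 with the trend on gene length removed, 16 with no filter, and 18 or 19 with the other scalings, pseudocounts, filter and variance settings. The number that rose was 0 to 1 when 1 library was left out and 0 otherwise. Over all genes, 929 to 1401 rose and 939 to 1317 fell when 1 library was left out. On 5 libraries edgeR called 957 higher and 988 lower, and DESeq2 called 445 higher and 537 lower. Why DESeq2 called fewer on the same libraries was not tested. With the replicate block, a term for the replicate number, 18 members fell and 0 rose. The labels do not say whether the numbers mark pairs, and same-numbered samples did not deviate together. Rplp1, Rpl10a, Rps9 and Rplp0 passed in all 17 alternatives, 13 of the 19 passed in at least 12, and none of the 19 changed sign. The share of counts in the members differed by -0.0662 to -0.0371 percentage points when 1 library was left out and by -0.0528 without the most abundant member. The planned fit on RPKM was not run, because the RPKM columns used here hold no value per library. Leaving out a library leaves a group of 2, which widens the errors. Members with few reads, such as Rpl17, Rps13, Rps23 and Rpl21, have standard errors of 0.12 to 0.28 on the log2 scale, so changes of the size seen in the abundant members could not be detected in them.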
